A study of Mus musculus with 10 samples.

Results

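Myostatin, activin and follistatin form a signalling axis that restrains the growth of skeletal muscle. The 9 genes described here encode its ligands (Mstn, Gdf11, Inhba, Inhbb), its secreted inhibitors (Fst, Fstl3) and its receptors (Acvr2a, Acvr2b, Acvr1b). They were taken by symbol from the array annotation, out of 22180 genes with 1 symbol, and each of the 9 genes had 1 probe set. RNA of the plantaris, a calf muscle of male C57BL/6 mice, was hybridised to Affymetrix Mouse Gene 2.1 ST array strips, with RNA of 4 muscles pooled on each array and 2 pools per group. The groups were 10 d of overload with a blocker of PDGF (platelet-derived growth factor) signalling, 10 d of overload without it, 3 d of overload with this inhibitor, 3 d of overload without it, and no overload. Overload was produced by synergist ablation, the removal of muscles that share the work of the plantaris, so the overloaded muscle also lies beside a surgical wound. The labels give neither the name of the inhibitor nor the age of the mice, and they list no sham operation and no inhibitor group without overload. The study asked how blocking PDGF signalling changes the response of muscle to overload.

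Myostatin is a ligand of the transforming growth factor beta family that muscle fibres secrete, and loss of it enlarges muscle in mice, cattle and humans. Myostatin, its close relative GDF11 and the activins, which are dimers of the chains encoded by Inhba and Inhbb, bind a type II receptor (ACVR2A or ACVR2B) that recruits a type I receptor such as ALK4, encoded by Acvr1b. The receptors phosphorylate SMAD2 and SMAD3, which enter the nucleus with SMAD4. Follistatin (Fst) and follistatin-like 3 (Fstl3) wrap around these ligands and keep them from the receptors.

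Start regions of Mstn, Gdf11 and Acvr1b are printed because the transcripts of these genes took 3 different courses over the groups. RefSeq promoter entries on GRCm38.p6 were matched for 8 of the 9 genes; Fst was not matched. The 200 bases before each start follow, read 5′ to 3′ on the gene's own strand. They lie at chr1:53061440-53061639 (plus strand) for Mstn, chr10:128891719-128891918 (minus strand) for Gdf11 and chr15:101173872-101174071 (plus strand) for Acvr1b. Capitals mark each E-box, CANNTG, and each TATA box, TATAAA, on either strand. Myogenic factors such as MYOD are among the factors that read E-boxes, and which factor reads a given E-box was not tested.
Mstn: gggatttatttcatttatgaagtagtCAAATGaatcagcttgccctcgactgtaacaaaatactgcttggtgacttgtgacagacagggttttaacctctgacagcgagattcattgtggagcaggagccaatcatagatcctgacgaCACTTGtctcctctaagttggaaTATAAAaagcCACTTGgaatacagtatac
Gdf11: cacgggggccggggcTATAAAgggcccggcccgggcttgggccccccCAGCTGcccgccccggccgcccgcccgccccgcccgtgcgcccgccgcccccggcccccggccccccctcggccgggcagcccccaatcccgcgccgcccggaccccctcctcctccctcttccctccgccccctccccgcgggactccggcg
Acvr1b: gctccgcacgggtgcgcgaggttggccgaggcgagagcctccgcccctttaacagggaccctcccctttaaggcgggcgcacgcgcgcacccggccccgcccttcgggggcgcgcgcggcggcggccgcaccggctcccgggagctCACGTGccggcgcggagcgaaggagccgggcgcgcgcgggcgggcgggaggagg
The Mstn region held 3 E-boxes and a TATA box that begins 29 bases before the start. The Gdf11 region held 1 E-box and a TATA box 185 bases before the start, and the Acvr1b region held 1 E-box and no TATA box. Among 32851 promoter regions of this length in the table, 58.2% held an E-box and 9.96% a TATA box, so an E-box is common. G and C made up 41% of the Mstn region, 86% of the Gdf11 region and 80.5% of the Acvr1b region, against a median of 53% over all regions. Letters read by SMAD proteins, CAGAC on either strand, were found once in the Mstn region and not in the regions of Gdf11 and Acvr1b, and 35.5% of all regions held them. No E-box overlapped a TATA box in these regions.

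Values are deposited log2 expression values, and a difference of 1 is a 2-fold difference within a gene. Levels of different genes are not compared, because each probe set has its own brightness. Across genes, pools of the same group had correlations of 0.989 to 0.992. The muscle label was checked with 10 fibre genes (among them Acta1, Ckm and Tnnt3), whose mean level lay between 11.5 and 11.9 log2 units in every pool. Pool 1 of 3 d overload stood apart: a list of 4 granulocyte precursor genes averaged 4.40 log2 units in it, against 1.15 to 1.77 in the other 9 pools. In whole muscle, fewer cells of a type and less RNA per cell cannot be told apart, and this holds for every fall described here.

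Over the 5 groups as a whole, Mstn, Gdf11, Inhba, Fst, Acvr2b and Acvr1b varied beyond the spread between pools (6 of 9 genes, limma's F test with Benjamini-Hochberg adjustment), against 15.7% of all genes. Inhbb, Fstl3 and Acvr2a did not pass (adjusted p = 0.285, 0.113 and 0.332). After 10 d of overload, Gdf11 and Fst rose and Mstn fell against no overload, and 5.13% of all genes were called there. After 3 d of overload, Inhba rose and Mstn, Acvr2b and Acvr1b fell (17.5% of all genes called). At 3 d with the inhibitor, Inhba and Fstl3 rose and Mstn, Acvr2b and Acvr1b fell (14.2% of all genes called). At 10 d with the inhibitor none of the 9 genes was called by limma, and 1.56% of all genes were called. An unadjusted p under 0.05 was reached there by 3 of the 9 genes and by 15.1% of all genes. These comparisons share the 2 pools without overload. With the groups of each gene ordered by level, Inhba at 3 d against 10 d with the inhibitor was the only neighbouring pair past the threshold (0.62, adjusted p = 0.0384). Gene positions below are RefSeq's on GRCm38.p6.

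**Figure D1:**
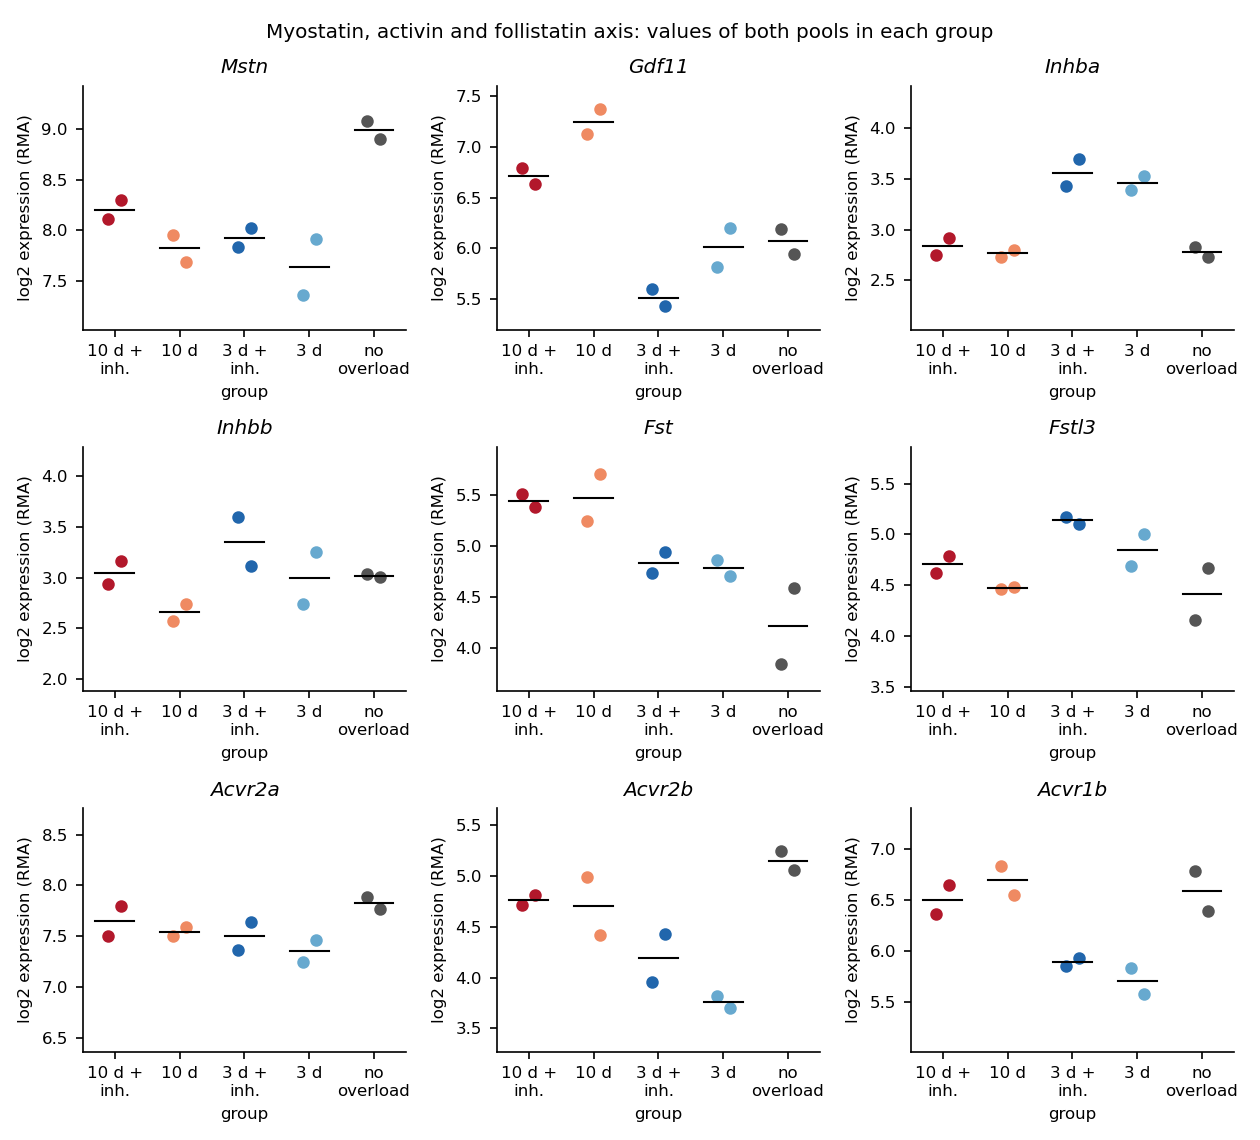
Log2 expression of the 9 genes (vertical axes, each spanning the same number of log2 units) in both pools of each group (horizontal axes; inh., PDGF inhibitor). Points are pools and bars are group means. Mstn was below the pools without overload in all 8 overload pools, and Gdf11 was highest at 10 d, in 4 pools between 6.64 and 7.37.

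Mstn, the gene of myostatin, lies at chr1:53061640-53068079 (probe set 17212813). It was read at 8.11 and 8.30 log2 units (pools 1 and 2) at 10 d with the inhibitor, 7.96 and 7.69 at 10 d without it, 7.84 and 8.03 at 3 d with it, 7.37 and 7.91 at 3 d without it, and 9.08 and 8.91 without overload. All 8 overload pools lay below both pools without overload, and the overload groups overlapped in part with each other. Such a drop without overlap was seen in 25.1% of all genes at 10 d with the inhibitor, 28.1% at 10 d, 26.4% at 3 d with the inhibitor and 30.7% at 3 d. Mstn was 2.55-fold lower at 3 d of overload than without overload (log2 -1.35 ± 0.20 SE, limma adjusted p = 0.00258), and this call held in all alternatives run, with values from -1.62 to -1.08 without single pools. At 10 d it was 2.25-fold lower (log2 -1.17 ± 0.20, adjusted p = 0.0169). That 10 d call was lost without 10 d overload pool 2 (adjusted p = 0.109) and without either pool of muscle without overload (0.0941 without pool 1 and 0.0540 without pool 2). With the inhibitor the change was -1.06 ± 0.20 at 3 d (adjusted p = 0.0101; 0.0739 without inhibitor pool 1 and 0.0638 without no-overload pool 1) and -0.79 ± 0.20 at 10 d, which did not pass (adjusted p = 0.104). Transcript of the growth-restraining ligand was thus lower after both times of overload and, with the inhibitor, at 3 d. No neighbouring pair in the order of the 4 overload groups passed (limma adjusted p 0.528 to 0.830). Neighbours alone do not test the whole order, and 10 d with the inhibitor was not compared with 3 d without it.

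Gdf11, at chr10:128880524-128891718 (probe set 17246352), encodes a ligand whose active part is closely related to that of myostatin. Its transcript rose after 10 d of overload and did not pass the test at 3 d. The pools read 6.79 and 6.64 log2 units at 10 d with the inhibitor, 7.13 and 7.37 at 10 d without it, 5.60 and 5.43 at 3 d with it, 5.82 and 6.20 at 3 d without it, and 6.19 and 5.95 without overload. The 4 pools of 10 d were the highest and did not overlap with any other pool. Such a rise over no overload was seen in 22.1% of all genes at 10 d and 21.5% with the inhibitor. From 3 d to 10 d it was seen in 24.6%, and in 22.9% with the inhibitor. At 10 d of overload Gdf11 was 2.27-fold higher than without overload (log2 1.18 ± 0.18, limma adjusted p = 0.0105), and at 3 d the change was -0.06 ± 0.18 (adjusted p = 0.876). The 10 d call was lost without 10 d overload pool 2 or without no-overload pool 2 (to adjusted p = 0.0737 and 0.0557).

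The step from 3 d to 10 d was seen with and without the inhibitor. Gdf11 was 2.36-fold higher at 10 d than at 3 d of overload (log2 1.24 ± 0.18, adjusted p = 0.00862; 6.08% of all genes called). With the inhibitor present it was 2.29-fold higher at 10 d than at 3 d (log2 1.20 ± 0.18, adjusted p = 0.0112; 4.65% of all genes called). Without 3 d overload pool 1 the first of these changes was 1.05 (adjusted p = 0.0609). The second lost its call without any 1 of its own 4 pools, at values from 1.11 to 1.28 (adjusted p up to 0.0726). Against no overload, the inhibitor groups gave 0.64 ± 0.18 at 10 d and -0.55 ± 0.18 at 3 d, and neither passed (adjusted p = 0.130 and 0.0778). With arrays set to a common median the 3 d value was -0.68 and passed (adjusted p = 0.0365).

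Inhba, at chr13:16004256-16031609 (probe set 17285438), encodes the beta A chain, and its dimer is activin A. It rose at 3 d with and without the inhibitor. Both 3 d groups read higher than every other pool: 3.43 and 3.70 log2 units with the inhibitor and 3.39 and 3.53 without it. A rise over no overload without overlap was seen in 26.8% of all genes with the inhibitor and 25.1% without it. A drop from 3 d to 10 d without overlap was seen in 26.8% and 24.2%. The 10 d pools read 2.76 and 2.92 with the inhibitor and 2.73 and 2.80 without it, close to the 2.83 and 2.73 of muscle without overload. At 3 d of overload Inhba was 1.60-fold higher than without overload (log2 0.67 ± 0.15, limma adjusted p = 0.0136), and with the inhibitor 1.72-fold higher (log2 0.78 ± 0.15, adjusted p = 0.00946).

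Inhba was then lower again at 10 d than at 3 d of overload (log2 -0.69 ± 0.15, adjusted p = 0.0303), and likewise with the inhibitor present (log2 -0.72 ± 0.15, adjusted p = 0.0310). At 10 d the change from no overload was -0.02 ± 0.15 (95% interval -0.35 to 0.32). The gene is dim, at percentile 49.6 of the mean levels of all genes, and its calls were easily lost. The 3 d call was lost without 3 d overload pool 2 or without no-overload pool 2 (to adjusted p = 0.0794 and 0.0743), and with the inhibitor without 3 d inhibitor pool 2 or no-overload pool 2 (0.0588 and 0.0567). Both calls between 10 d and 3 d were lost without any 1 of the 4 pools compared (adjusted p up to 0.156 with and 0.142 without the inhibitor). With arrays set to a common median the 3 d change was 0.48 (adjusted p = 0.0554). With an intensity trend in limma's variance prior the 3 d call was lost (adjusted p = 0.0678), as were both calls between 10 d and 3 d. The call at 3 d with the inhibitor was kept under that setting.

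Macrophages and monocytes are also known to make activin A. At 3 d, 8 of 8 genes of these cells rose, and 7 with the inhibitor (9.31% and 7.71% of all genes called higher). At 10 d, 7 of 8 rose, and 4 with the inhibitor (3.9% and 1.13% of all genes called higher). Their mean level was 5.41 and 5.47 log2 units at 10 d with the inhibitor, 5.65 and 6.24 at 10 d without it, 6.99 and 6.75 at 3 d with it, 7.49 and 7.08 at 3 d without it, and 4.04 and 4.23 without overload. The list was highest at 3 d, as Inhba was, and at 10 d it still stood above the no-overload pools, where Inhba overlapped with them. The part of these cells in the Inhba values was not tested.

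Inhbb, at chr1:119415463-119422248 (probe set 17226189), encodes the beta B chain of activin B, and no comparison called it. Its pools read 2.94 and 3.16 log2 units at 10 d with the inhibitor, 2.57 and 2.74 at 10 d without it, 3.60 and 3.11 at 3 d with it, 2.73 and 3.25 at 3 d without it, and 3.03 and 3.00 without overload. The 2 pools of 3 d overload lay 0.51 apart, more than any group mean differed from the no-overload mean. Against no overload the changes were 0.03 ± 0.22 at 10 d with the inhibitor, -0.36 ± 0.22 at 10 d, 0.33 ± 0.22 at 3 d with it and -0.03 ± 0.22 at 3 d. Its 95% interval at 3 d, -0.52 to 0.47, holds changes of up to that size either way.

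Fst, at chr13:114452262-114458989 (probe set 17296344), encodes follistatin, which binds activins and myostatin and enlarges muscle when it is supplied in excess in mice. Its pools read 5.51 and 5.39 log2 units at 10 d with the inhibitor, 5.24 and 5.71 at 10 d without it, 4.74 and 4.94 at 3 d with it, 4.87 and 4.70 at 3 d without it, and 3.84 and 4.59 without overload. The levels formed 3 steps without overlap, with the 10 d pools highest, the 3 d pools between and the no-overload pools lowest. Single rises without overlap were common: 22.1% of all genes rose so at 10 d and 25.1% at 3 d against no overload. Between 3 d and 10 d it was 24.6%. With the inhibitor these shares were 21.5%, 26.8% and 22.9%. At 10 d of overload Fst was 2.39-fold higher than without overload (log2 1.26 ± 0.25, limma adjusted p = 0.0279). With the inhibitor at 10 d the change was 1.23 ± 0.25 and fell just short of the threshold (adjusted p = 0.0542).

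At 3 d the Fst changes were 0.62 ± 0.25 with and 0.57 ± 0.25 without the inhibitor, and neither passed (adjusted p = 0.155 and 0.178). Differences of 10 d against 3 d did not pass either, at 0.61 ± 0.25 with and 0.69 ± 0.25 without the inhibitor (adjusted p = 0.231 and 0.158). The no-overload pools were 0.75 apart, the widest gap of any group for this gene. Without no-overload pool 1 the 10 d change of Fst was 0.88 (adjusted p = 0.119), and without pool 2 it was 1.63 (0.0221). Without 10 d overload pool 2 it was 1.03 (adjusted p = 0.169). Without no-overload pool 2 the 3 changes that had not passed against no overload all did, at 1.60 for 10 d with the inhibitor, 0.995 for 3 d with it and 0.94 for 3 d.

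Fibroblast genes moved beside Fst at 10 d. Of 7, 7 rose against no overload and 3 did so with the inhibitor (3.9% and 1.13% of all genes called higher). Their mean level was 7.46 and 7.41 log2 units at 10 d with the inhibitor, 7.96 and 8.60 at 10 d without it, 7.22 and 7.16 at 3 d with it, 7.77 and 7.69 at 3 d without it, and 6.30 and 6.41 without overload. Between the 10 d groups Fst differed by -0.03 (inhibitor minus none, 95% interval -0.60 to 0.55), and the fibroblast genes had a median difference of -1.02 with none called. Satellite cell and myoblast genes are from cells that also make follistatin. At 10 d, 2 of 6 rose, and 1 with the inhibitor. At 3 d, 4 of 6 rose, and 3 with the inhibitor (9.31% and 7.71% of all genes called higher). The part of these cells in the Fst values was not tested.

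Fstl3, at chr10:79777274-79782630 (probe set 17234955), encodes a secreted relative of follistatin. It read 4.62 and 4.79 log2 units at 10 d with the inhibitor, 4.46 and 4.48 at 10 d without it, 5.17 and 5.11 at 3 d with it, 4.69 and 4.998 at 3 d without it, and 4.15 and 4.67 without overload. The lowest of all was a no-overload pool, and the pools of 3 d with the inhibitor lay above every other pool. A rise over no overload without overlap was seen in 26.8% of all genes for that group. That group was 1.65-fold higher than muscle without overload (log2 0.73 ± 0.19, limma adjusted p = 0.0376). The call was lost without either pool of that group, any pool of either 10 d group, or no-overload pool 1, without which the change was 0.47 (adjusted p = 0.199). Without the inhibitor the 3 d change was 0.43 ± 0.19 (adjusted p = 0.175), and at 10 d it was 0.06 ± 0.19.

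Of the type II receptor genes, Acvr2b, at chr9:119401583-119442148 (probe set 17523081), encodes a receptor that binds myostatin with high affinity. It read 4.71 and 4.82 log2 units at 10 d with the inhibitor, 4.99 and 4.42 at 10 d without it, 3.96 and 4.43 at 3 d with it, 3.82 and 3.70 at 3 d without it, and 5.24 and 5.06 without overload. All 8 overload pools were below the pools without overload, and the 3 d pools without inhibitor were the lowest. A drop below no overload without overlap was seen in 25.1% of all genes at 10 d with the inhibitor and 28.1% at 10 d. At 3 d it was seen in 26.4% with the inhibitor and 30.7% without it. Acvr2b was 2.62-fold lower at 3 d of overload than without overload (log2 -1.39 ± 0.22, limma adjusted p = 0.00348), a call kept in all alternatives run, with values from -1.48 to -1.30 without single pools.

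With the inhibitor, Acvr2b at 3 d was 1.94-fold lower than without overload (log2 -0.95 ± 0.22, adjusted p = 0.0229). That call was lost without 3 d inhibitor pool 1 or without 1 of the no-overload pools (adjusted p = 0.144, 0.118 and 0.0653). At 10 d the changes of -0.39 ± 0.22 with and -0.45 ± 0.22 without the inhibitor did not pass (adjusted p = 0.474 and 0.306). Acvr2b was 1.93-fold higher at 10 d than at 3 d of overload (log2 0.95 ± 0.22, adjusted p = 0.0437). That call was kept in only 3 of 10 omissions of a pool: it was lost without either 3 d pool, 10 d overload pool 1, or any pool of 10 d with the inhibitor or no overload, at values from 0.66 to 1.01.

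Acvr2a, at chr2:48814109-48903264 (probe set 17370598), encodes the other type II receptor, and no comparison called it. The pools read 7.50 and 7.80 log2 units at 10 d with the inhibitor, 7.50 and 7.59 at 10 d without it, 7.37 and 7.64 at 3 d with it, 7.24 and 7.46 at 3 d without it, and 7.88 and 7.77 without overload. Overload pools were mostly lower, by a small margin. At 3 d the change was -0.47 ± 0.17 (adjusted p = 0.0905), and with arrays set to a common median it was -0.66 and passed (0.0256). Within an array, the difference Acvr2b minus Acvr2a, set to 0 at its no-overload mean, was -0.74 and -0.54 in the 3 d pools with the inhibitor and -0.75 and -1.09 in those without it. At 10 d it was -0.12 and -0.31 with the inhibitor and 0.17 and -0.50 without it, and the difference between these genes was not tested.

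Acvr1b, at chr15:101174072-101213684 (probe set 17315152), encodes ALK4, a type I receptor for activins and myostatin. It read 6.36 and 6.65 log2 units at 10 d with the inhibitor, 6.84 and 6.55 at 10 d without it, 5.85 and 5.92 at 3 d with it, 5.83 and 5.57 at 3 d without it, and 6.78 and 6.40 without overload. The 4 pools of 3 d lay below all others, and the 10 d pools overlapped with those without overload. A drop below no overload without overlap was seen at 3 d in 26.4% of all genes with the inhibitor and 30.7% without it. At 3 d of overload Acvr1b was 1.85-fold lower than without overload (log2 -0.89 ± 0.19, limma adjusted p = 0.0130). At 10 d it was 1.99-fold higher than at 3 d (log2 0.99 ± 0.19, adjusted p = 0.0219), and it differed from no overload by 0.11 ± 0.19.

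The fall of Acvr1b at 3 d was lost without 3 d overload pool 2 (log2 -0.76, adjusted p = 0.0832) or no-overload pool 1 (-0.69, 0.0865). The rise between 3 d and 10 d was lost without either 3 d pool or 10 d overload pool 1 (adjusted p = 0.0749, 0.114 and 0.118). With the inhibitor the 3 d change was -0.70 ± 0.19 (adjusted p = 0.0411), kept in 3 of 10 omissions: it was lost without any 3 d pool, either pool of 10 d with the inhibitor, or no-overload pool 1, without which it was -0.51 (adjusted p = 0.217). The difference of 0.62 ± 0.19 between 10 d and 3 d with the inhibitor did not pass (adjusted p = 0.114).

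Leaving out 3 d overload pool 1, the pool with granulocyte precursor transcripts, leaves 1 pool at 3 d, so only the size of the changes is given. Against no overload, Mstn was then at -1.08, Inhba at 0.74, Acvr2b at -1.45 and Acvr1b at -1.02. Between 10 d and 3 d the values without that pool were 1.05 for Gdf11, -0.76 for Inhba, 1.01 for Acvr2b and 1.12 for Acvr1b. With all pools they were 1.24, -0.69, 0.95 and 0.99. Fast fibre genes, the transcripts of mature muscle, had a median change of -0.19 at 3 d beside the falls of Mstn, Acvr2b and Acvr1b. Of 10, 1 was called lower (8.18% of all genes). All 10 ranked at percentile 99.81 or above without overload, and the highest value on any array was 12.71 log2 units. Whether changes are compressed at such levels was not tested.

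**Figure D2:**
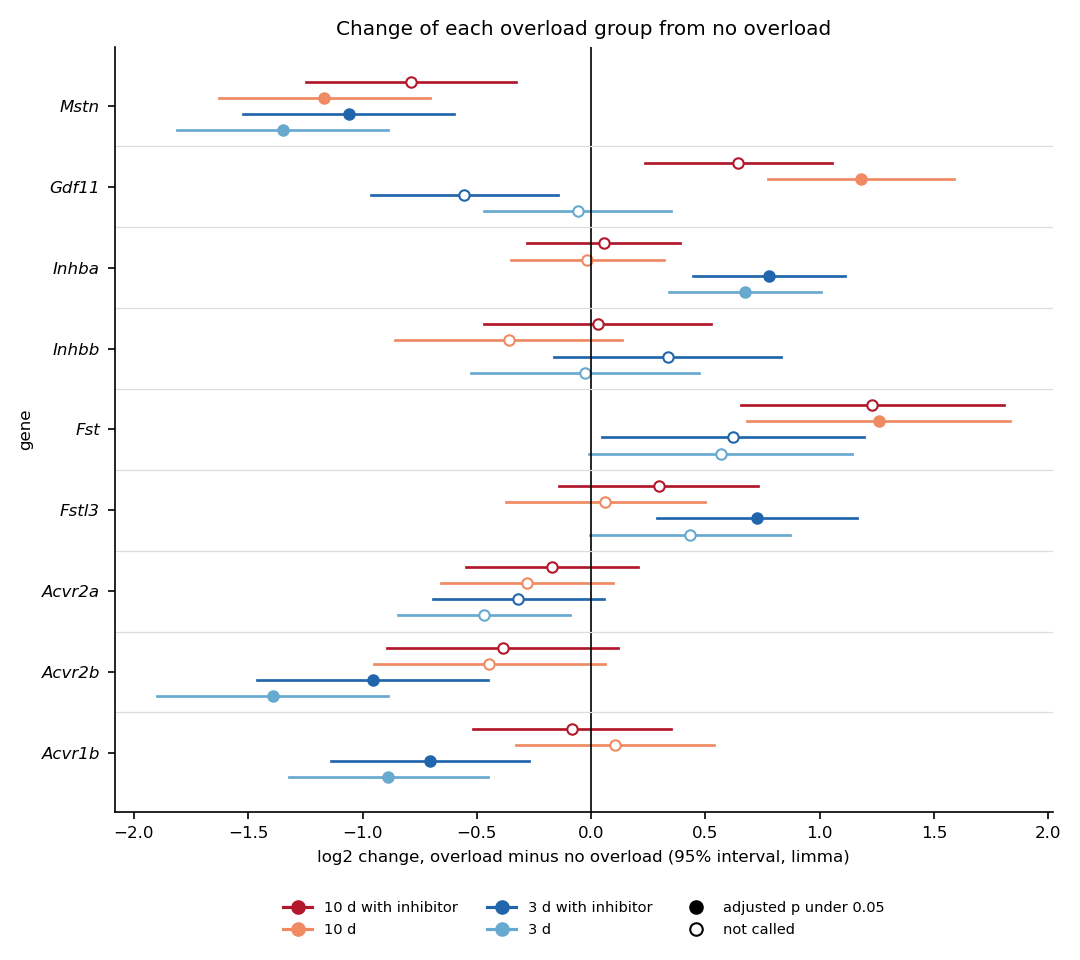
Log2 change of each gene (vertical axis) in each overload group against no overload (horizontal axis), with the 95% interval of the limma fit. Filled points passed at an adjusted p under 0.05. All 4 groups share the same 2 no-overload pools. Mstn lies left of 0 in all 4 groups, Gdf11 lies right of 0 at 10 d, and Acvr2b and Acvr1b lie farther left at 3 d than at 10 d.

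Inhibitor and ligand were set against each other within each array, which removes shifts common to an array. Fst minus Mstn, set to 0 at the no-overload mean, was 2.17 and 1.87 at 10 d with the inhibitor, 2.06 and 2.79 at 10 d without it, 1.68 and 1.69 at 3 d with it, 2.27 and 1.56 at 3 d without it, and -0.46 and 0.46 without overload. The shift was present at 3 d already, where the change of Mstn was the larger of the 2, with and without the inhibitor. At 10 d the changes of Fst and Mstn were 1.23 and -0.79 with the inhibitor, and 1.26 and -1.17 without it. Gdf11 minus Mstn was 1.60 and 1.26 at 10 d with the inhibitor and 2.10 and 2.60 at 10 d without it. At 3 d it was 0.69 and 0.33 with the inhibitor and 1.37 and 1.21 without it. Neither of these differences between genes was tested.

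**Figure D3:**
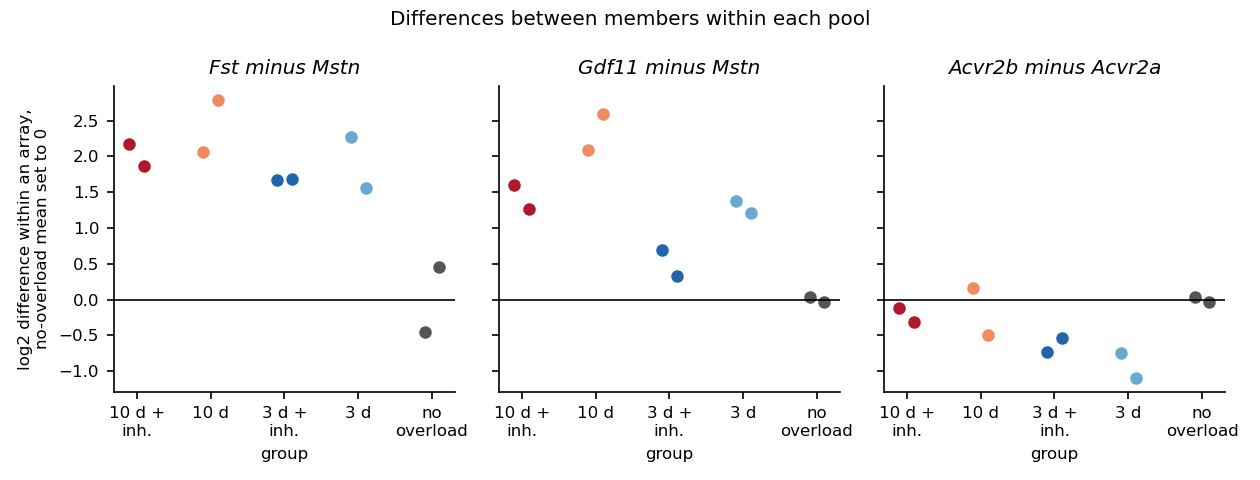
Log2 difference between 2 genes within each array (vertical axis, no-overload mean set to 0) for both pools of each group (horizontal axis; inh., PDGF inhibitor). Points are pools. Fst minus Mstn is 1.56 or more in all 8 overload pools. Gdf11 minus Mstn is lower with the inhibitor than without it at each time, and Acvr2b minus Acvr2a is lowest at 3 d.

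None of the 9 genes was called by limma for the PDGF inhibitor. An unadjusted p under 0.05 was reached by 1 of the 9 genes at 10 d, 1 at 3 d and 3 for the average of both times, where 12.7% of all genes reached it. At 10 d, 23 genes of the array (0.104%) were called, and 10.6% had an unadjusted p under 0.05. At 3 d no gene was called (0%), and 9.07% had an unadjusted p under 0.05. Averaged over both times, 64 genes were called (0.289%). The difference of the inhibitor effects, 10 d minus 3 d, called no gene (0%; 6.47% with an unadjusted p under 0.05), and none of the 9 genes had an unadjusted p under 0.05 for it.

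Gdf11 had the lowest p of the 9 genes for the inhibitor. Its inhibitor pools lay below the pools without it at each time, without overlap, as did 19.5% of all genes at 10 d and 17.7% at 3 d. The difference was -0.54 ± 0.18 at 10 d (95% interval -0.94 to -0.13, limma adjusted p = 0.317) and -0.50 ± 0.18 at 3 d (-0.90 to -0.09, adjusted p = 0.468). Averaged over both times it was -0.52 ± 0.13 (-0.80 to -0.23, unadjusted p = 0.00307, adjusted p = 0.140). With an intensity trend in limma's variance prior the average passed (adjusted p = 0.0386).

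Mstn and Inhbb leaned the other way, and neither passed. At 3 d the Mstn difference was 0.02 without 3 d overload pool 1 and 0.56 without pool 2. That of Inhbb, a dim gene at percentile 49.2 of the mean levels, was 0.105 and 0.62. Averaged over both times, Mstn differed by 0.33 ± 0.14 (95% interval 0.01 to 0.66, adjusted p = 0.380) and Inhbb by 0.38 ± 0.15 (0.02 to 0.73, adjusted p = 0.359). The follistatin gene differed by 0.01 ± 0.18 (-0.39 to 0.42) and Acvr1b by -0.004 ± 0.13 (-0.31 to 0.30). Intervals of this width hold differences of 0.3 log2 units either way for the Acvr1b gene. Neutrophil genes had a mean level of 4.93 and 4.64 log2 units at 10 d with the inhibitor, against 2.35 and 2.15 without it. Of these genes, 1 of 5 rose with the inhibitor at 10 d (0.0225% of all genes called higher). At 3 d the levels overlapped, at 4.42 and 4.16 with the inhibitor and 5.35 and 2.71 without it. Dividing-cell genes fell in 4 of 5 averaged over both times (0.225% of all genes called lower). The part of these cells in the inhibitor differences was not tested.

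**Figure D4:**
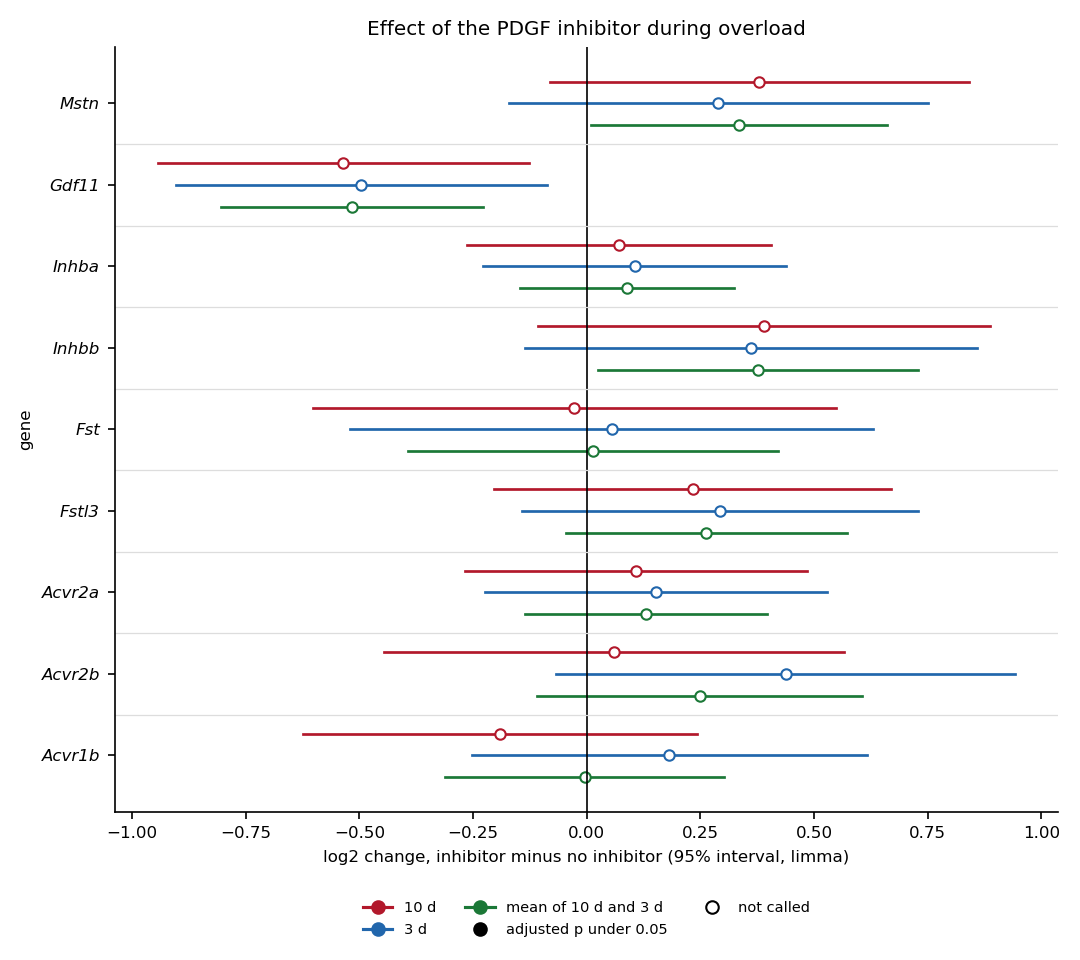
Log2 difference with minus without the PDGF inhibitor (horizontal axis) for each gene (vertical axis) at 3 d, at 10 d and averaged, with the 95% interval of the limma fit. No gene passed at an adjusted p under 0.05. The Gdf11 intervals lie left of 0, and those of Fst and Acvr1b span it.

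The wider pathway was read through 7 lists holding 58 further genes, of which 55 were measured. At 10 d of overload 7 rose and 0 fell (5.13% of all genes called; median change -0.03, against -0.04 over all genes). At 3 d 13 rose and 4 fell (17.5% of all genes called; median 0.05, against -0.04). With the inhibitor the counts were 9 higher and 3 lower at 3 d (14.2%), and 0 at 10 d by limma (1.56%), where 15 had an unadjusted p under 0.05, as did 15.1% of all genes. Without 3 d overload pool 1, an alternative chosen after seeing the data, the 3 d median change was 0.04. That fit leaves 1 pool at 3 d, so its calls are not compared.

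Transcripts known to respond to SMAD2 and SMAD3 held 6 of the 13 rises at 3 d, among 7 measured genes (median change 1.48), and 5 of 7 rose with the inhibitor. The rises at 3 d were 2.004 ± 0.39 for Ltbp2, a matrix protein related to those that hold latent ligand, 1.75 ± 0.22 for Tgfbi, a matrix protein, 1.65 ± 0.22 for Ccn2, a matricellular growth factor, and 1.48 ± 0.26 for Junb, a transcription factor (limma adjusted p = 0.00878, 0.00115, 0.00166 and 0.00513). At 10 d 1 of 7 rose, Tgfbi, by 1.04 ± 0.22 (adjusted p = 0.0326). These genes also respond to other signals. Without 3 d overload pool 1 their median change at 3 d was 1.3. They stood high at 3 d in the same muscles in which Mstn, Acvr2b and Acvr1b were low and Inhba and Tgfb1 high. A link between these changes was not tested.

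Among ligands outside the axis, Tgfb1, which encodes the founding ligand of the family, rose by 1.10 ± 0.17 at 10 d and by 1.92 ± 0.17 at 3 d (adjusted p = 0.0120 and 0.000293), the 1 call among 8 other ligands of the family at each time, when 5.13% and 17.5% of all genes were called. Among 6 propeptide proteases, which free ligands from their precursors, Bmp1 rose by 1.52 ± 0.25 at 10 d and by 1.08 ± 0.25 at 3 d, and Pcsk5 by 1.10 ± 0.22 and by 1.22 ± 0.22. Pcsk6 fell by 0.71 at 3 d. Without 3 d overload pool 1, the median 3 d change of these proteases was 0.60, against 0.67 with it. BMP1-type proteases are known to cut the myostatin propeptide.

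Among 9 further extracellular binders, Fstl1, a secreted protein that shares a domain with follistatin, rose by 2.12 ± 0.24 at 10 d and by 1.85 ± 0.24 at 3 d. Ltbp3, which binds latent ligand in the matrix, rose by 0.70 ± 0.17 at 10 d (adjusted p = 0.0498). Chrdl2, an antagonist of bone morphogenetic proteins, fell by 1.34 at 3 d, and Igsf1, a membrane glycoprotein, fell by 0.65. Without 3 d overload pool 1, the median 3 d change of these binders was -0.24, against -0.38 with it. Wfikkn2, which binds myostatin and GDF11, changed by -0.81 at 10 d and -1.19 at 3 d without passing (adjusted p = 0.295 and 0.0748), and it fell by 1.45 at 3 d with the inhibitor (adjusted p = 0.0427).

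Receptors, transducers and regulators are read against the same shares of all genes, 5.13% at 10 d and 17.5% at 3 d. Of 9 other receptors, Tgfbr2, the type II receptor for TGF-beta, rose by 0.93 ± 0.20 at 10 d, and none passed at 3 d. Of 6 transducers, Zfyve9, which anchors SMAD2 and SMAD3 near the receptor, fell by 0.85 at 3 d. Smad2, Smad3 and Smad4 did not pass, with 3 d changes of 0.17, -0.22 and -0.30. Of 10 negative regulators, the repressors Tgif1 and Skil and the ubiquitin ligase gene Smurf2 rose at 3 d, by 0.94, 0.52 and 0.46, and Smad7, which blocks the receptors, changed by 0.05 (adjusted p = 0.920). Without 3 d overload pool 1 the median 3 d change of these 10 regulators was -0.15, against -0.02 with it. For the inhibitor limma called 0 of the 55 genes at each time and on average, with 7 at an unadjusted p under 0.05 at 10 d, 4 at 3 d and 8 for the average (10.6%, 9.07% and 12.7% of all genes).

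**Figure D5:**
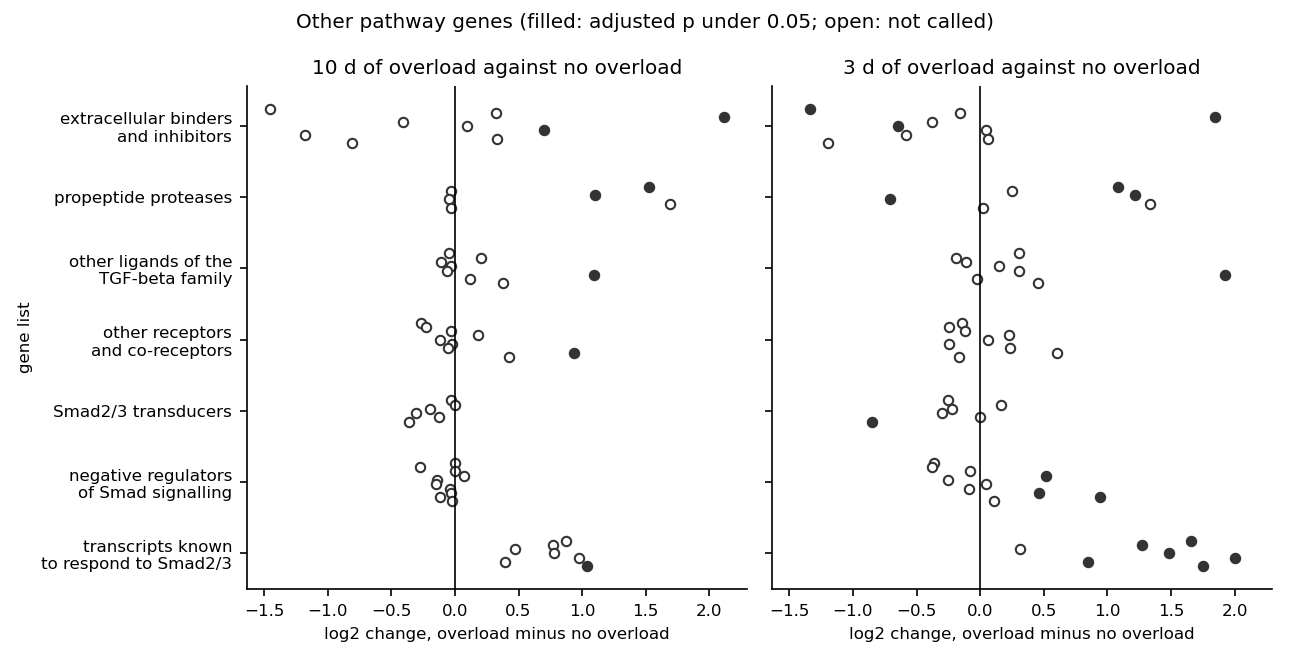
Log2 change against no overload (horizontal axis) of the measured genes of 7 pathway lists (vertical axis) at 10 d and 3 d of overload. Each point is a gene, and filled points passed at an adjusted p under 0.05. At 3 d, 6 of the 7 SMAD-responsive transcripts lie to the right among the passing genes, and among receptors and transducers 1 point passed, Zfyve9 at -0.85.

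Levels over the 10 arrays were correlated with those of 6434 genes that varied, as a description, since the arrays share 5 groups of 2 pools. The nearest genes to Mstn were Bpifa2 (Pearson r = 0.977), Tigar (0.961) and Vegfb (0.961). For Gdf11 they were Sesn3 (0.959), Itm2a (0.956) and Sat2 (0.952), and for Inhba Chmp1b (0.986), Papola (0.982) and Dnase1l3 (0.980). For Fst they were Cpne2 (0.947), Podn (0.930) and Hes6 (0.928). Acvr2b ran closest to Zfyve9 (0.977), the transducer that also fell at 3 d, then to Pank4 and Magix (0.969 each). Acvr1b ran closest to Def8 (0.973), Apeh (0.972) and Mettl7a1 (0.962). Within the axis, Acvr2b and Acvr1b had r = 0.892, Mstn and Acvr2a 0.862, and Inhba and Acvr1b -0.874 over the same 10 arrays.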

How the data were processed

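RNA of plantaris muscle was measured on 10 arrays, each a pool of 4 muscles, in 5 groups of 2 pools. The deposited table holds log2 expression values made by the authors with RMA and oligo, per the submitters' processing notes, which also name limma. Labels name both a WT PLUS and a NuGEN labelling kit, and no source used here gives strips or scan dates. Scanner intensities were not used, so detection above background is unknown and the number of arrays limits the precision.

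Of 41345 probe sets, 23521 had 1 symbol in the annotation, 1814 several and 16010 none listed. The brightest probe set stood for each of 22180 genes. Group means were fitted over all 10 arrays with lmFit and eBayes (limma 3.58.1, R 4.3.3), and p-values were adjusted by Benjamini-Hochberg over all genes, with 0.05 as the threshold. SE and intervals come from this fit, which had 5 residual degrees of freedom. Labels do not say that pools came from separate animals, so p-values measure the spread between pools, which may be technical. Pool numbers follow accession order and pair nothing. The fit was tested on simulated data.

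The 9 genes and all lists were chosen with earlier results of these data known. Named were the 9 genes, called pathway genes (at most 4 per list), uncalled genes named after their values were seen (Wfikkn2, Smad2, Smad3, Smad4 and Smad7), and the 3 genes most like each of the 9 that passed the F test, with an SD of at least 0.3. Marker lists were fibre, satellite cell, fibroblast, tendon, macrophage, neutrophil, granulocyte precursor, endothelial, pericyte, Schwann cell, adipocyte, red cell precursor and dividing cell. Alternatives were other probe set rules, 2 scalings, a filter on dim genes, only the groups compared, other variance priors, array weights and leaving out each array. Promoters are RefSeq's, on GRCm38.p6.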

Additional observations from a re-analysis of the deposited data

How the results depend on the processing

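The 18 calls on the 9 genes gave 356 checks under alternatives, of which 282 kept the call, 74 lost it and 0 reversed. The 3 d falls of Mstn and Acvr2b were the 2 calls lost under none. Results without a call gained one in 19 of 1424 checks. With only the groups compared in the fit, 0 of the 9 genes were called for 10 d against no overload. For 10 d against 3 d the count was 0, and with the inhibitor 1. For 3 d with the inhibitor against no overload it was 1. Over all genes, that fit called 29 higher and 2 lower at 10 d (865 and 273 as reported). It called 61 and 141 for 10 d against 3 d (598 and 750 as reported), and 121 and 228 with the inhibitor. For 3 d with the inhibitor it called 1187 and 746. For 10 d with the inhibitor 0 were called as reported. Under alternatives 2 were called among genes above the median level, 3 with an intensity trend and 1 with array weights. Over all genes these settings called 535 higher and 295 lower of 11090, 645 and 424, and 355 and 146 (250 and 95 as reported). The filter on dim genes left 1 call for 10 d against 3 d with the inhibitor and gives Inhba no value. Of the 11090 genes it kept, 869 were called higher and 1004 lower there. The averaged inhibitor effect gained 1 call, Gdf11, with the intensity trend. Over all genes that setting called 164 higher and 301 lower (14 and 50 as reported).

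Leaving out single pools gave 0 to 1 calls for 10 d with the inhibitor, 0 to 3 for 10 d, 1 to 4 for 3 d with the inhibitor, 2 to 4 for 3 d, 0 to 4 for 10 d against 3 d, 0 to 2 for the same with the inhibitor, 0 to 0 for each inhibitor comparison and 3 to 6 for the F test. Arrays set to a common median moved the median over all genes to -0.21 at 10 d and -0.23 at 3 d, and the calls over all genes to 678 higher and 896 lower at 10 d (865 and 273 as reported) and to 1567 and 3295 at 3 d (2066 and 1815 as reported). With the inhibitor they were 224 and 137 at 10 d (250 and 95) and 1315 and 1991 at 3 d (1711 and 1443). Under that scaling Gdf11 fell at 3 d with the inhibitor (log2 -0.68, adjusted p = 0.0365), and Fstl3 there was at 0.60 (adjusted p = 0.0778). That scaling subtracts each array's median over the 22180 genes, so all genes of a comparison shift by the same amount. Medians over all probe sets already lay between 2.40 and 2.45 log2 units. Why the medians over the 22180 genes differed between groups was not tested. No paired analysis was possible because the labels carry no replicate numbers that groups share.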

Other observations

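Lists that stand in no comparison above gave these levels. Tendon genes averaged 6.20 and 6.66 log2 units at 10 d with the inhibitor, 7.16 and 7.78 at 10 d without it, 6.39 and 6.02 at 3 d with it, 6.87 and 6.86 at 3 d without it, and 5.82 and 5.98 without overload. The endothelial list averaged between 7.38 and 7.94 in all 10 pools, and that of pericytes and smooth muscle between 7.70 and 8.02. Of 6 endothelial genes, 2 were called lower at 3 d, Tie1 (log2 -0.76) and Flt1 (-0.65), against 8.18% of all genes. From 3 d to 10 d, 1 was called higher, Tie1 (log2 1.05), against 2.7% of all genes. The adipocyte list averaged between 2.95 and 3.70. The Schwann cell list (2 genes measured) lay between 2.72 and 3.63, and the red cell precursor list (1 gene) between 1.11 and 1.70. Of the Schwann cell genes, Sox10 was called lower than without overload at 10 d, at 3 d and at 3 d with the inhibitor. At those times 1.23%, 8.18% and 6.51% of all genes were called lower.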
